A study of Mus musculus with 10 samples.

Results

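Immediate early genes are switched on within minutes of a stimulus from transcription machinery that is already in the cell, without new protein being made. Serum response factor, ternary complex factors and CREB, acting downstream of MAP kinases and calcium, start their transcription, and most of the transcripts are short-lived. In the intestine they respond to growth factors, feeding, stretch and handling of the tissue, in epithelium as well as in muscle and immune cells. Here 10 of these genes were followed in the jejunum: the AP-1 subunits Fos, Fosb, Jun and Junb, the zinc finger factors Egr1 and Egr2, the orphan nuclear receptor Nr4a1, the nuclear protein Ier2, the MAP kinase phosphatase Dusp1 and the mRNA decay factor Zfp36. They were taken from the table by symbol, and all 10 were found among the 45707 rows of the table.

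The table holds RNA sequencing of the jejunum of 5 Vil-Cre mice and 5 Vil-Cre:NDI1 mice, with 1 library per mouse. All were male littermates of 8 to 12 weeks that had been fasted overnight for 16 to 18 h and gavaged with water 1 h before the tissue was taken. Both genotypes carried Vil-Cre, which acts in intestinal epithelial cells, and Vil-Cre:NDI1 mice also carried 1 copy of a lox-stop-lox NDI1 cassette at ROSA26, whose product is the single-subunit NADH dehydrogenase of yeast. The samples were pieces of jejunum rather than sorted epithelium, so that a smaller number of cells of a type cannot be told apart from less RNA per cell. Values are normalized counts, which are whole reads divided by 1 size factor per library, and each library had between 10145705 and 12371530 reads on genes. NDI1 had 0 reads in 4 Vil-Cre libraries and 1 read in Vil-Cre 3, and normalized counts from 982 to 2575 in the 5 Vil-Cre:NDI1 mice. The 10 enterocyte markers summed to between 382036 and 721649 normalized counts, and none of them was at 0 in any mouse. Most immediate early genes were high in 2 libraries, Vil-Cre 1 and Vil-Cre:NDI1 5, and low in Vil-Cre 4.

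The RefSeq promoter table for GRCm38.p6 holds 8 of the 10 genes (Egr1 and Ier2 have no entry), as windows of 250 bases before to 50 bases after the start. Promoters of 3 of the genes are shown because they hold 3 different known promoter motifs. The bases shown lie before the start and outside any annotated exon. They are chr12:85473640-85473889 on the plus strand for Fos, upstream of the gene, chr15:101266596-101266845 on the plus strand for Nr4a1, inside an intron of a longer Nr4a1 transcript, and chr17:26508520-26508722 on the minus strand for Dusp1, inside an intron of a longer Dusp1 transcript. They are written 5′ to 3′, and capitals mark the TATA box in Fos, the EGR motif in Nr4a1 and the cyclic AMP response element (CRE) in Dusp1.
Fos: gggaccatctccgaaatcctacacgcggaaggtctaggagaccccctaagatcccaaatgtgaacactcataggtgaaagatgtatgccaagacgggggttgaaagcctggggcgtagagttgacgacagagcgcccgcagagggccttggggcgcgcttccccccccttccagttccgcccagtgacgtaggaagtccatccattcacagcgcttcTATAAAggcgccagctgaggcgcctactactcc
Nr4a1: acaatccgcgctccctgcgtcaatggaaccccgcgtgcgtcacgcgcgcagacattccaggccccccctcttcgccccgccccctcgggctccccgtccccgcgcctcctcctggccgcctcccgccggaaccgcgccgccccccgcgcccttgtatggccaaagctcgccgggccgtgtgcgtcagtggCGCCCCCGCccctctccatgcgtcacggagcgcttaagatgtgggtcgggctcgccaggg
Dusp1: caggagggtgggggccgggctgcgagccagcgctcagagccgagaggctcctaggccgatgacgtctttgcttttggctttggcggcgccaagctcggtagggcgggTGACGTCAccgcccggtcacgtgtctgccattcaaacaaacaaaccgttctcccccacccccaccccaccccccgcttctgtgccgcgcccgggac
Both strands of the windows were searched for these letters, with -1 as the base just before the start. The TATA box (TATAAA) of Fos lies at -33 to -28. These letters were also present in the window of Junb, and in 15.7% of all 27025 genes with a promoter. The EGR motif (GCGGGGGCG) of Nr4a1 lies at -60 to -52 on the opposite strand and overlaps an SP1 motif (GGGCGG). It was also present in Fosb and Zfp36, and in 3.31% of all 27025 genes with a promoter. The CRE (TGACGTCA) of Dusp1 lies at -143 to -136, and this motif was in 2.03% of all genes with a promoter. A CArG box, the element bound by serum response factor, was found in Zfp36 and Egr2 and in 1.81% of all genes with a promoter. SP1 motifs were in 7 of the 8 genes (38.2% of all genes with a promoter), ETS motifs (CCGGAA) in 3 (16.7%) and the AP-1 motif (TGACTCA) in 0 (5.95%). These matches describe letters in the windows only.

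Vil-Cre:NDI1 and Vil-Cre mice were tested against each other with limma on log2(value + 1), over genes with at least 10 normalized counts in at least 5 mice, and Egr2 was below this filter. No immediate early gene passed, and for each of the 9 tested the values of the 5 Vil-Cre:NDI1 mice overlapped those of the 5 controls. Nr4a1 and Egr1 had the lowest group ratios among the tested genes, with mean normalized counts in Vil-Cre:NDI1 mice of 0.359 and 0.562 times the controls, and for the other 7 the ratio was between 0.763 (Dusp1) and 1.11 (Fosb). The threshold was an adjusted p of 0.05, which 0 of the 9 passed, where 0.00699% of the 14301 genes tested passed, that is NDI1 alone. Before adjustment, 1 of the 9 had p under 0.05, Nr4a1, beside 4.24% of all genes. Genotypes that did not overlap were found in 0 of the 9 and in 0.699% of all genes tested. DESeq2 tested all 10 and called 0 of them (2 before adjustment, Nr4a1 and Egr2), while it called 0.179% of its 17330 genes, and edgeR called 0 of 9 (1 before adjustment, Nr4a1) and 0.007% of its 14290 genes. In Vil-Cre 3 and Vil-Cre 4 the value of 1 read lies near 1, at 1.002 and 1.011. A check for whole reads did not decide these 2 libraries, although 100% of their non-zero values were whole multiples of that value. When both were left out, DESeq2 called 1 of 10, Nr4a1, and 1.59% of 16953 genes, and edgeR called 0 of 9 (2 before adjustment, Nr4a1 and Dusp1) and 0.00674% of 14830 genes. The DESeq2 and edgeR shares of all genes are after adjustment. Their shares before adjustment were not counted, so their member counts before adjustment have no background to be set against. The log2 fold change was below 0 in 6 of the 9 genes and in 48.8% of all genes. Its median over the 9 was -0.12, against 0.01 over all genes tested.

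Fos, the AP-1 subunit most often used as a mark of recent stimulation, was at 4605, 3204, 2319, 1655 and 2948 normalized counts in Vil-Cre mice 1 to 5 and at 2335, 3114, 2432, 2015 and 4673 in Vil-Cre:NDI1 mice 1 to 5. The highest mouse of each genotype, at 4605 and 4673, was followed by 3204 and 3114, and the groups overlapped over nearly their whole range. The means were 2946 ± 1104 and 2914 ± 1062 (SD, n = 5 mice each). The log2 fold change (Vil-Cre:NDI1 over Vil-Cre, on the log2(value + 1) scale) was -0.00070 ± 0.28 (SE), with a 95% interval from -0.61 to 0.61 (adjusted p = 1.00, limma). Its sign turned when any of 6 mice was left out. Fosb, a paralogue that also gives the long-lived splice form deltaFosB, was at 331, 340.3, 256, 81.9 and 144 in Vil-Cre mice and at 167, 163, 186, 147 and 616 in Vil-Cre:NDI1 mice. Vil-Cre:NDI1 5 was more than 3 times as high as any other Vil-Cre:NDI1 mouse, while the other 4 lay within the range of the controls. Fosb had a log2 fold change of 0.08 ± 0.47 (adjusted p = 0.998, limma), and it turned to -0.29 without Vil-Cre:NDI1 5.

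Jun and Junb, which pair with FOS proteins in AP-1, varied less. Jun was at 2229.6, 1588, 1817, 1286 and 1409 in Vil-Cre mice and at 1387, 1967, 1826, 1504 and 2345 in Vil-Cre:NDI1 mice. Junb was at 1685, 1536, 1564, 1352 and 1429.6 in Vil-Cre mice and at 1133, 1296, 1116, 1459 and 2166 in Vil-Cre:NDI1 mice. In both genes the groups overlapped, and 3 of 5 Vil-Cre:NDI1 mice had less Junb than every control. The log2 fold change was 0.12 ± 0.17 for Jun and -0.12 ± 0.16 for Junb (adjusted p = 0.998 for both, limma). Exons of Junb overlap those of Prdx2 on the other strand, which was at a mean of 1563 normalized counts. Jun overlaps Junos on the other strand, which was at a mean of 5.78 normalized counts. Whether reads were counted by strand is not given in the sources used here, so the level of Junb is uncertain, as are those of Dusp1 and Zfp36. Jun is at chr4:95049034-95052222, Junb at chr8:84974484-84978718, Fos at chr12:85473890-85477273 and Fosb at chr7:19302696-19310051.

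Egr1, a zinc finger activator induced by growth factors, was the member that varied most for its level. It was at 574, 270.3, 128, 75.8 and 172 normalized counts in Vil-Cre mice and at 72.5, 89.3, 68.7, 81.3 and 373 in Vil-Cre:NDI1 mice. In Vil-Cre:NDI1 mice 4 of 5 lay close together and Vil-Cre:NDI1 5 was far above them, whereas 4 of 5 controls were above those 4 and Vil-Cre 4 was among them. The means were 244 ± 198 and 137 ± 132 (SD, n = 5 mice each). The log2 fold change was -0.85 ± 0.57, with a 95% interval from -2.09 to 0.40 (adjusted p = 0.998, limma, and p = 0.238 in the two-sided exact permutation test). It was -1.30 without Vil-Cre:NDI1 5 and -0.45 without Vil-Cre 1, and neither passed the threshold. Egr2, its close relative, was near the limit of detection, with 6, 8, 0, 14 and 8 reads in Vil-Cre mice and 4, 0, 0, 3 and 2 reads in Vil-Cre:NDI1 mice. It did not pass the filter of at least 10 normalized counts in at least 5 mice, and in the 3 mice with 0 reads up to 3 reads are allowed by the depth. Egr2 is at chr10:67535475-67542188.

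Nr4a1, an orphan nuclear receptor also called Nur77, had the largest difference between the genotypes among the 9 genes tested. It was at 146, 52.5, 46.1, 15.2 and 80.6 normalized counts in Vil-Cre mice and at 19.6, 19.1, 16.5, 29.4 and 37.6 in Vil-Cre:NDI1 mice. In Vil-Cre mice 4 of 5 were above every Vil-Cre:NDI1 mouse and Vil-Cre 4 was below all of them. The means were 68.0 ± 49.3 and 24.4 ± 8.83 (SD, n = 5 mice each), and the log2 fold change was -1.17 ± 0.50, with a 95% interval from -2.26 to -0.08. This did not pass the threshold (p = 0.0381 before and 0.998 after adjustment over all genes, limma, and p = 0.0794 in the two-sided exact permutation test). DESeq2 and edgeR on the recovered reads gave adjusted p = 0.223 and 0.997 for Nr4a1. Vil-Cre 3 and Vil-Cre 4, which the check for whole reads did not decide, were then left out. In that comparison DESeq2 gave a log2 fold change of -1.94 with adjusted p = 0.000611, and edgeR the same fold change with adjusted p = 0.287. That comparison leaves out the control with the lowest Nr4a1. The gene is at chr15:101254269-101274795.

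The remaining 3 genes are Dusp1 and Zfp36, which limit the response, and Ier2. Dusp1, a nuclear phosphatase that switches off MAP kinases, was at 359, 190.4, 175, 155 and 219 in Vil-Cre mice and at 188, 171, 174, 132 and 171 in Vil-Cre:NDI1 mice. Vil-Cre 1 was high and the other 9 mice lay between 132 and 219, with overlapping groups. Dusp1 had a log2 fold change of -0.33 ± 0.21 (adjusted p = 0.998, limma), and it was -0.14 without Vil-Cre 1. Exons of Dusp1 (chr17:26505590-26562128) overlap those of Ergic1 on the other strand, which was at a mean of 334 normalized counts.

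Zfp36, or tristetraprolin, binds AU-rich elements and speeds the decay of mRNAs such as those of cytokines and of other immediate early genes. It was at 2564, 2235, 2138, 2092 and 1976 in Vil-Cre mice and at 2130.0, 2603, 1859, 1922 and 3352 in Vil-Cre:NDI1 mice, with a log2 fold change of 0.08 ± 0.15 (adjusted p = 0.998, limma). Ier2, a nuclear protein of less defined function, was the steadiest member, at 543, 531, 516, 407 and 515 in Vil-Cre mice and at 393, 481, 458, 433 and 555 in Vil-Cre:NDI1 mice, with a log2 fold change of -0.12 ± 0.11 (adjusted p = 0.998, limma). Both sets of values overlapped between the genotypes. Zfp36 is at chr7:28376784-28380253 and Ier2 at chr8:84661331-84662852. Zfp36 overlaps Gm44710 on the other strand, whose level is not known.

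**Figure D1:**
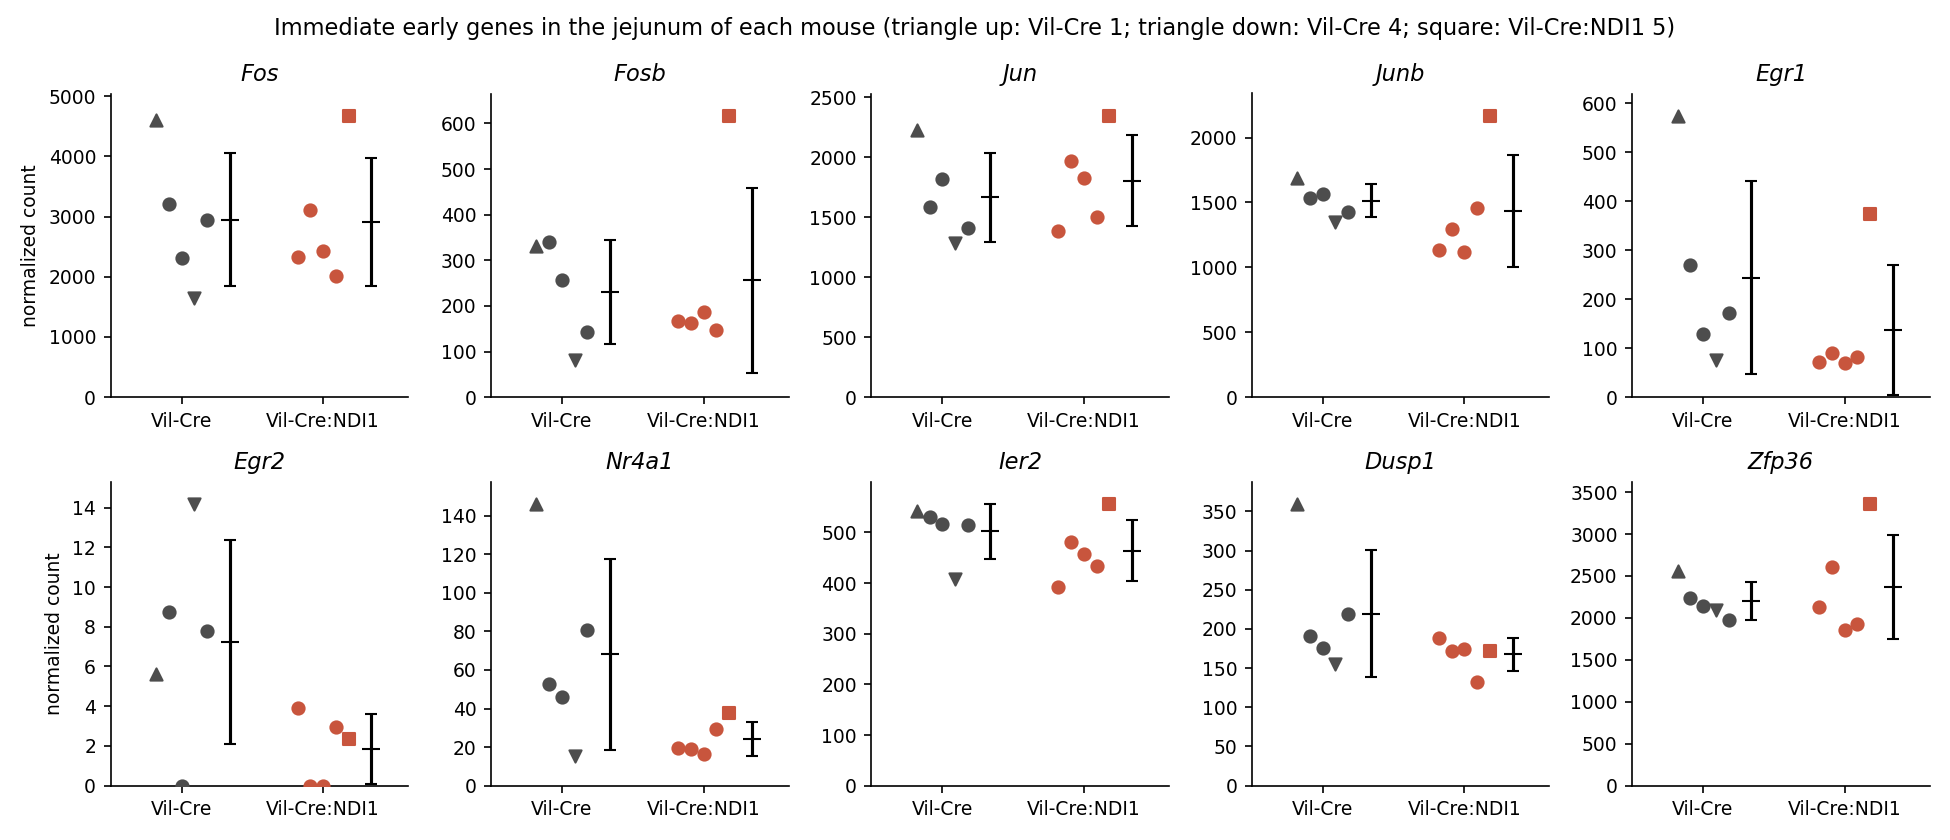
Normalized count (linear axes from 0) of each of the 10 immediate early genes in the 5 Vil-Cre mice (grey) and the 5 Vil-Cre:NDI1 mice (red), with the mean and SD to the right of each group. The groups overlap in every panel, Vil-Cre 1 (triangle up) and Vil-Cre:NDI1 5 (square) are the 2 highest mice for Fos at 4605 and 4673, and Vil-Cre 4 (triangle down) is the lowest at 1655.

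**Figure D2:**
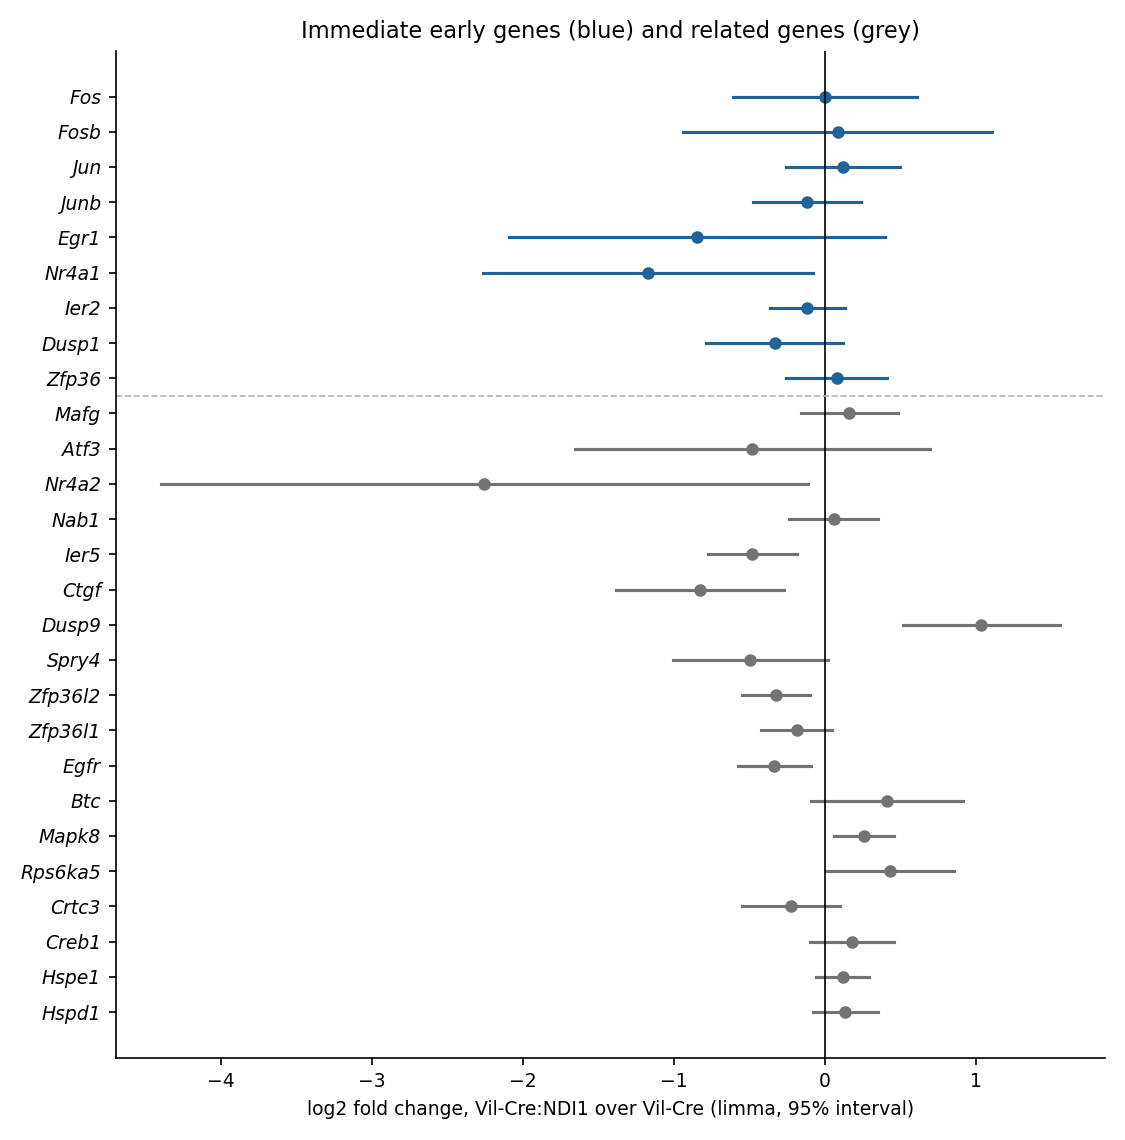
Log2 fold change with its 95% interval (limma, horizontal axis) for the 9 immediate early genes tested (blue) and the named related genes (grey). The interval of Nr4a1 ends at -0.08, just below 0, and those of the other 8 immediate early genes include 0.

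Levels were compared between genes per kb of merged exon length, from GENCODE M21. Over all 10 mice Fos was highest, at 1246 ± 434 (SD, n = 10 mice) normalized counts per kb, and above the next gene, Zfp36, in 10 of 10 mice. Zfp36 (659 ± 129), Junb (640.5 ± 132) and Jun (544 ± 114) followed and did not separate, since Zfp36 was above Junb in 6 mice and Junb above Jun in 8. Ier2 (317 ± 38.0) lay below Jun and above Dusp1 (58.4 ± 18.8) with no overlap on either side. Dusp1, Egr1 (42.5 ± 37.5) and Fosb (39.0 ± 24.9) overlapped, with Dusp1 above Egr1 in 7 mice and Egr1 above Fosb in 4. Nr4a1 (13.2 ± 11.6) was below Fosb in 10 mice, though their ranges overlapped, and Egr2 (1.34 ± 1.36) came last, below the whole range of Nr4a1.

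The members were set beside the paralogues of their families, again per kb. Within the FOS family Fos made up 71.7% ± 3.81 of the summed level in Vil-Cre mice and 71.2% ± 6.92 in Vil-Cre:NDI1 mice, followed by Fosl2 at 25.9% and 26.4%, with Fosb at 2.10% and 2.18%. Fosl2, which encodes the FOS protein Fra2, took between 20.4% and 39.0% in single mice, the highest share being in Vil-Cre:NDI1 4. Within the JUN family Jund, whose transcript is present without stimulation, made up 66.4% and 66.7%, Junb 18.8% and 17.3%, and Jun between 12.6% and 18.3% in single mice. Egr1 made up at least 79.4% of the EGR family in every mouse. These shares were chosen with the values known and were not tested.

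In the NR4A family the shares differed between mice. Nr4a2, or Nurr1, was at 682 and 770.4 normalized counts in Vil-Cre 1 and Vil-Cre 2, and between 16.4 and 32.1 in the other 8 mice. It took 78.9% and 91.9% of the family's level in those 2 mice, where Nr4a1 took 19.5% and 7.25%, whereas Nr4a1 took between 40.6% and 72.6% in the others. Vil-Cre 1 was highest for Nr4a1 and second for Nr4a2, and Vil-Cre 2, the highest for Nr4a2, had 52.5 normalized counts of Nr4a1. Nr4a2 had a log2 fold change of -2.25 ± 0.98 (adjusted p = 0.998, limma). On all 10 mice DESeq2 gave -3.86 (adjusted p = 0.0566) and edgeR -3.85 (adjusted p = 0.997), and over the alternatives the log2 fold change ran from -4.54 to -1.53. DESeq2 without Vil-Cre 3 and Vil-Cre 4, which leaves these 2 mice among 3 controls, called it (adjusted p = 7.3e-05).

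**Figure D3:**
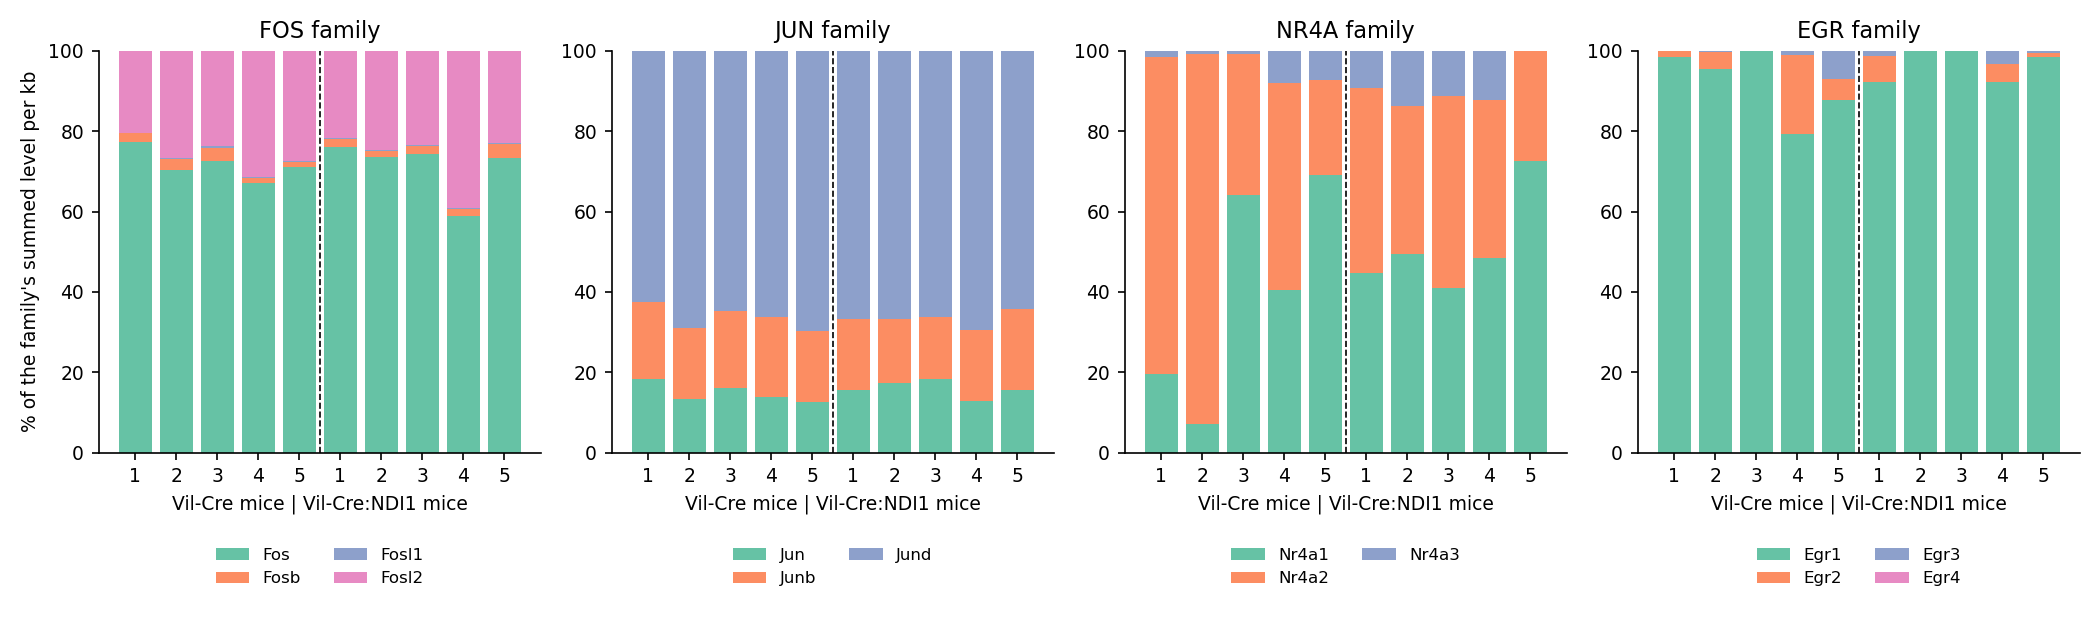
Share of each gene in the summed level per kb (vertical axis, %) of the FOS, JUN, NR4A and EGR families, as stacked bars for each mouse. Fosl2 takes from 20.4% to 39.0% of the FOS family and Jund from 62.5% to 69.7% of the JUN family, while Nr4a2 takes 78.9% and 91.9% of the NR4A family in Vil-Cre 1 and Vil-Cre 2.

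The immediate early genes varied together over the 10 mice. Vil-Cre 1 and Vil-Cre:NDI1 5 were each among the 2 highest mice for 7 of the 9 genes tested, and Vil-Cre 4 was among the 2 lowest for 6. The 10 genes together took 0.120% of the normalized total in Vil-Cre 1 and 0.118% in Vil-Cre:NDI1 5, against 0.0644% to 0.0897% in the other 8 mice. The ratio of the highest to the lowest mouse was 9.61 for Nr4a1, 8.35 for Egr1 and 7.52 for Fosb, and between 1.41 (Ier2) and 2.82 (Fos) for the other 6. Among genes within 2-fold of its mean level, the spread within genotypes of Egr1 exceeded that of 98.4%, of Fosb 97.7% and of Fos 94.7%, and that of Ier2 exceeded 41.6%. The 36 pairs among the 9 genes had Pearson's r from 0.20 to 0.86 with a median of 0.71 over the 10 mice. The same was not counted for pairs of other genes, so whether this is particular to the immediate early genes was not tested.

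The 2 high mice did not have the same profile. Vil-Cre:NDI1 5 and Vil-Cre 1 were alike in Fos (ratio 1.01), Jun (1.05) and Ier2 (1.02), and Vil-Cre:NDI1 5 was higher in Fosb (1.86), Zfp36 (1.31) and Junb (1.29). It was lower in Egr1 (0.651), Dusp1 (0.478) and Nr4a1 (0.258). The ratio of the normalized counts of Nr4a1 to those of Fos was 0.0317 in Vil-Cre 1 and 0.00804 in Vil-Cre:NDI1 5, and lay between 0.00916 and 0.0317 among the controls and between 0.00614 and 0.0146 among Vil-Cre:NDI1 mice. With 1 such mouse of each genotype this difference has no replicate check.

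**Figure D4:**
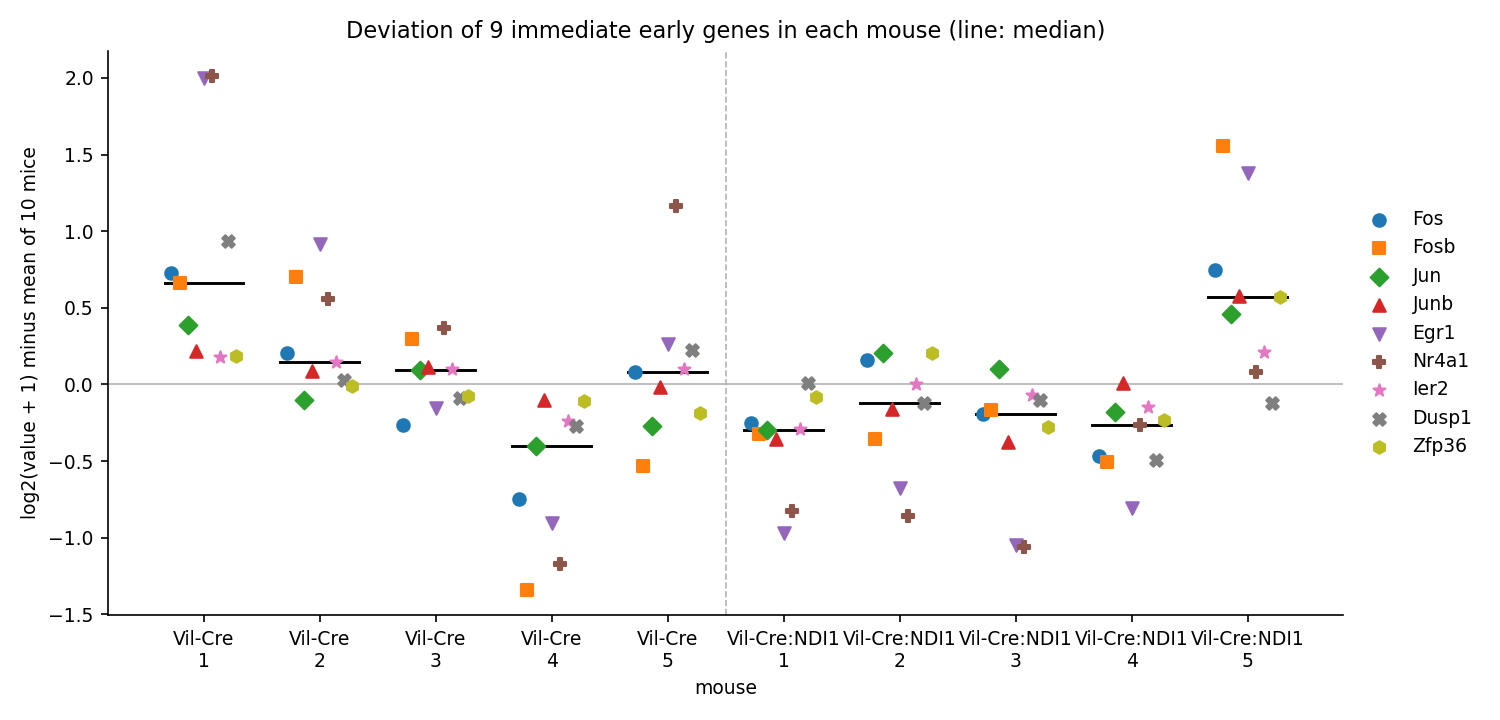
Deviation of the 9 immediate early genes tested from their mean over the 10 mice (vertical axis, log2(value + 1) units) in each mouse, with the median as a black line. The median is 0.66 in Vil-Cre 1 and 0.57 in Vil-Cre:NDI1 5, and -0.40 in Vil-Cre 4, the lowest.

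Fos was tested against each of the other 8 genes over the 10 mice, which makes 8 relations with two-sided permutation tests of 100000 resamples. Egr1 had the highest Pearson's r, 0.86 (permutation p = 0.000930, adjusted 0.00744) with Spearman's rho = 0.73 (permutation p = 0.0202, adjusted 0.0470), and Ier2 had the highest rho. For the other 7, r ranged from 0.64 for Nr4a1 to 0.83 for Fosb, with adjusted permutation p from 0.0114 to 0.0489, and rho from 0.47 for Junb to 0.81 for Ier2, with adjusted permutation p from 0.0470 to 0.178. How many of all genes tested correlate with Fos this strongly was not counted, so the 8 relations have no background to be set against. With the genotype means removed, r was between 0.66 and 0.95. The 2 mice farthest from the median of Fos were Vil-Cre:NDI1 5 and Vil-Cre 1. Without them r was between 0.11 for Junb and 0.72 for Ier2, and no relation passed (lowest adjusted permutation p = 0.180, n = 8 mice). Leaving them out also narrowed the range of Fos and lowered the number of mice, so this cannot show how far the calls rest on those 2 mice. For Dusp1 r was 0.67 without them and 0.64 with all 10 mice, and for Ier2 0.72 and 0.81.

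Beyond the 10 genes, the 6 genes whose pattern was most like the mean z-score of the 9 members over the 10 mice were Bend4 (r = 0.94), Snhg11 (0.93), Psd (0.93), P3h3 (0.92), Dact3 (0.91) and Fam107a (0.91). They are listed as a description, since the 10 points share their libraries and depth. All 6 were at low to moderate levels, between 12.1 and 320.5 normalized counts. Over all 14301 genes the median r was -0.003.

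Some marker lists of other cell types varied along with the immediate early genes. All 6 smooth muscle markers (Acta2, Myh11, Tagln, Des, Actg2 and Cnn1) had r from 0.70 to 0.82 with the mean z-score, and all 6 T cell markers had r from -0.88 to -0.65. The smooth muscle markers summed to 11841 in Vil-Cre 4 and 13681 in Vil-Cre:NDI1 1, which were the 2 lowest mice in the mean z-score, and to between 17958 and 25195 in the other 8. Their range was 11841 to 25195 in Vil-Cre mice and 13681 to 25034 in Vil-Cre:NDI1 mice. The T cell markers summed to between 917 and 2802 in Vil-Cre mice, highest in Vil-Cre 4, and between 543 and 2466 in Vil-Cre:NDI1 mice, lowest in Vil-Cre:NDI1 5. No marker of these 2 lists was at 0 in any mouse, and 0 of 6 in each passed the threshold between genotypes. The 10 enterocyte markers had a median r of 0.17 and the 7 crypt and cycling cell markers of -0.26. The median r was 0.46 for mesothelium and 0.48 for adipocytes (4 of 4 tested markers above 0 in each), -0.41 for enteroendocrine cells (0 of 5 above 0) and -0.39 for macrophages (1 of 6 above 0). Of the 5 adipocyte markers, 3 (Adipoq, Plin1 and Lep) were at 0 in some mouse.

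The 5 hepatocyte markers (Alb, Apoh, Ttr, Serpina1c and Cyp2e1) summed to 1393, 565, 687, 77.9 and 816 in Vil-Cre mice and to 60.8, 138, 273, 225 and 224 in Vil-Cre:NDI1 mice. In Vil-Cre mice their sum was highest in Vil-Cre 1, next in Vil-Cre 5 and lowest in Vil-Cre 4, as was Nr4a1, but in Vil-Cre:NDI1 mice it was highest in replicate 3, which had the lowest Nr4a1. Their r with the mean z-score ranged from 0.15 to 0.64, none was at 0 in any mouse, and 0 of 5 passed the threshold. The part of these and the other marker lists in the values of the immediate early genes was not tested.

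**Figure D5:**
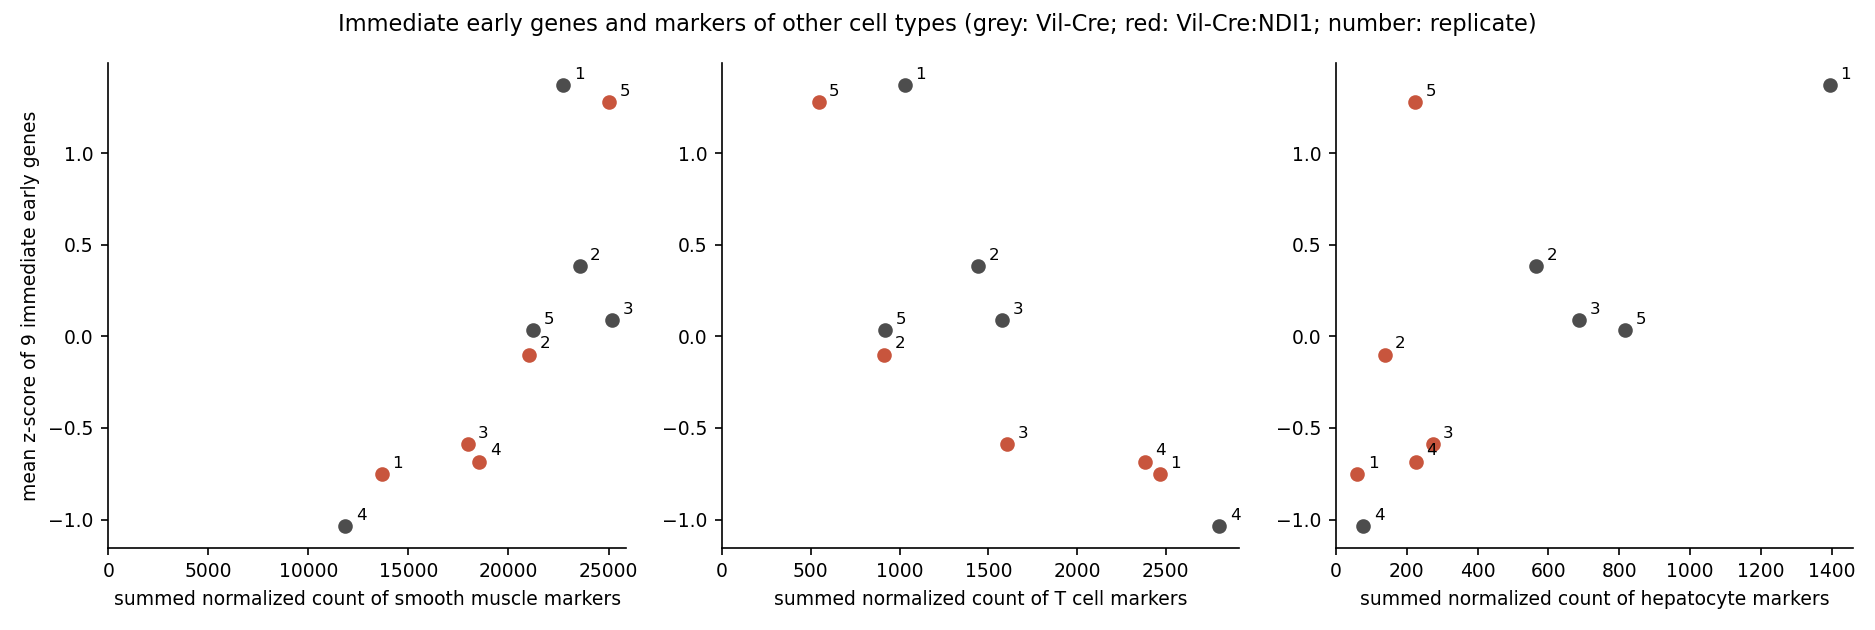
Mean z-score of the 9 immediate early genes tested (vertical axis) against the summed normalized count of the smooth muscle, T cell and hepatocyte markers (horizontal axes) in the 5 Vil-Cre mice (grey) and the 5 Vil-Cre:NDI1 mice (red). Vil-Cre 4 has the lowest smooth muscle sum (11841), the highest T cell sum (2802) and the lowest mean z-score (-1.03).

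The upstream and partner genes were taken from 9 lists that hold 116 genes, of which 109 were tested. In limma 0 of these 109 passed in either direction, and their median log2 fold change was 0.01. Before adjustment 8 of the 109 had p under 0.05 in limma, beside 606 of all 14301 genes tested (4.24%). DESeq2 called 1 of the pathway genes, Dusp9, where it called 0.179% of all its genes, and edgeR called 0. Dusp9, a cytoplasmic MAP kinase phosphatase, was at 16.8, 21.9, 15.0, 20.2 and 14.6 normalized counts in Vil-Cre mice and at 52.0, 31.9, 37.8, 27.4 and 39.9 in Vil-Cre:NDI1 mice, so that the groups did not overlap, as for 0.699% of all genes. Its log2 fold change was 1.04 ± 0.24 (adjusted p = 0.844, limma, and 0.050 just under the threshold in DESeq2), and at these counts it rests on 15 to 53 reads per library. Among the 14 MAP kinase phosphatases and feedback inhibitors tested, 8 had a log2 fold change above 0 and 6 below. Spry4, an inhibitor of receptor tyrosine kinase signalling, had the second smallest p of that list, with a log2 fold change of -0.49 (adjusted p = 0.998, limma).

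In the MAP kinase cascade, 12 of 17 genes had a log2 fold change above 0, with a median of 0.08. Mapk8, which encodes the kinase JNK1 that phosphorylates JUN, was at 535, 461, 598, 606 and 583 in Vil-Cre mice and at 678, 692, 635, 619 and 689 in Vil-Cre:NDI1 mice. These groups did not overlap either, but the difference was small, with a log2 fold change of 0.26 ± 0.09 (adjusted p = 0.998, limma). The kinase Rps6ka5, or MSK1, which phosphorylates CREB and histone H3 at induced genes, had a log2 fold change of 0.43 (adjusted p = 0.998, limma). In DESeq2 without Vil-Cre 3 and Vil-Cre 4 it was 0.66 and passed (adjusted p = 0.0281), and Vil-Cre 3 was the control with the most Rps6ka5, at 148 normalized counts against 73.8 to 93.0 in the other 4. Of the EGF ligands and receptors, 6 of 9 were above 0. Egfr, the receptor itself, was at 450 ± 33.7 in Vil-Cre mice and 358 ± 53.4 in Vil-Cre:NDI1 mice, with a log2 fold change of -0.34 (adjusted p = 0.998, limma), and its ligand Btc had a log2 fold change of 0.41.

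The other rapid-response genes had 18 of 29 log2 fold changes below 0, with a median of -0.06. Ier5 was at 833, 838, 843, 893 and 1191 in Vil-Cre mice and at 617, 570.3, 635, 610.1 and 867 in Vil-Cre:NDI1 mice. In 4 of 5 Vil-Cre:NDI1 mice it was below every control, and Vil-Cre:NDI1 5 was within their range. Its log2 fold change was -0.48 (adjusted p = 0.998, limma), and Ctgf, a secreted matrix-associated protein under control of YAP and serum response factor, had -0.83 (adjusted p = 0.998, limma). The AU-rich element binding proteins were split 3 above to 4 below, and Zfp36l2, a paralogue of Zfp36, had -0.32. The 12 transcription factors and cofactors of the SRF and CREB group (5 above, 7 below, median -0.02), the 9 AP-1 relatives (5 above, 4 below, median 0.01), the 3 EGR and NR4A relatives (1 above, 2 below, median -0.03) and the 9 heat shock genes (5 above, 4 below, median 0.10) held 1 gene with p under 0.05 before adjustment, Nr4a2. Those with the smallest p in these lists beside Nr4a2 were Crtc3 (log2 fold change -0.22), Creb1 (0.18), Mafg (0.16), Atf3 (-0.48), Nab1 (0.06), Hspd1 (0.13) and Hspe1 (0.12).

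Across mice, part of these lists followed the immediate early genes and part did not. The median r with the mean z-score of the 9 members was 0.55 for the AP-1 relatives and 0.47 for the other rapid-response genes. It was 0.39 for the EGR and NR4A relatives and 0.34 for the MAP kinase phosphatases and feedback inhibitors. The EGF ligands and receptors had 0.33 and the heat shock genes 0.23. Lowest were the MAP kinase cascade (0.16), the AU-rich element binding proteins (0.09) and the SRF and CREB factors (-0.10). Of the rapid-response genes, 26 of 29 had r above 0. The closest genes in these lists were Npas4 (0.88), an activity-induced factor, Trib1 (0.86), a pseudokinase, Hbegf (0.86), an EGF receptor ligand that is itself induced early, and Btg2 (0.81), an antiproliferative gene. Atf3, a stress-induced AP-1 partner, was at 632, 650, 484, 152 and 715 in Vil-Cre mice and at 157, 197, 244, 604 and 893 in Vil-Cre:NDI1 mice, with r = 0.72. Its high and low mice lay in both genotypes, and Vil-Cre 4 was again the lowest. These correlations describe 10 points that share library, depth and tissue makeup.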

How the data were processed

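Jejunum RNA was sequenced single-end, and the authors processed it with nf-core/rnaseq (trimGalore!, STAR, Salmon) against GRCm38 with NDI1 added. The deposited values are a signal, reads per gene divided by 1 DESeq2 size factor per library. The value of 1 read was recovered for each library, and 100% of non-zero values were whole multiples of it within 0.01 read. In 2 libraries, Vil-Cre 3 and Vil-Cre 4, it lies near 1, and the check for whole reads did not decide them. limma 3.58.1 (R 4.3.3) compared genotypes on log2(value + 1) with eBayes and a trended prior variance, and p was adjusted by Benjamini-Hochberg at 0.05 over the 14301 genes with at least 10 in at least 5 mice. DESeq2 1.42.0 (local fit) and edgeR 4.0.16 on the recovered reads, 2 pseudocounts (0.1 and 8), other filters, equal totals, no variance trend, array weights, a replicate block and leaving out each mouse were alternatives. Scripts were tested on simulated data. Named genes are the 10 members, NDI1, the 2 genes with the smallest limma p of each of 9 pathway lists, and the 6 genes most like the members' mean z-score. Other genes named were chosen after their values were seen. Members and lists were chosen with earlier results of these data known. Replicates are separate mice. The 95% intervals come from limma and the spread between mice, and the floor of 3 reads covers counting error only.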

Additional observations from a re-analysis of the deposited data

Results flagged for a closer look

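Within each genotype, the highest and lowest mouse of the 10 members, the 18 named pathway genes and the 6 genes most like the members were compared with the others, by the gap to the nearest mouse over the range of the 5 (critical value 0.71). Of 68 groups of 5 mice, 12 had a mouse that stood apart. For independent groups of normally distributed values, chance alone gives about 1 in 20, or 3.4. The genes here share the same mice, many vary together, and 6 were selected for that, so the count of 12 cannot be judged against 3.4. Among the members these were Fosb in Vil-Cre:NDI1 5 (616 normalized counts, others 147 to 186), Egr1 in Vil-Cre:NDI1 5 (373, others 68.7 to 89.3) and Ier2 in Vil-Cre 4 (407, others 515 to 543). Vil-Cre:NDI1 5 also stood apart in Ier5 (867), Bend4 (34.04) and Fam107a (68.1), of which the last 2 were selected for their likeness to the members. Vil-Cre 4 stood apart in Ctgf (123), Vil-Cre 5 in Ier5 (1191), and Vil-Cre 3 in Rps6ka5 (148) and Crtc3 (183). Vil-Cre:NDI1 3 was high in Nab1 (373) and Vil-Cre:NDI1 2 low in Btc (35.5). Nr4a2 was not among them, since both Vil-Cre 1 and Vil-Cre 2 were high.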

How the results depend on the processing

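The count of immediate early genes called was 0 under each alternative except DESeq2 without Vil-Cre 3 and Vil-Cre 4, an alternative added after seeing the data, where it was 1 (Nr4a1, log2 fold change -1.94, adjusted p = 0.000611). Elsewhere Nr4a1 kept its direction, from -0.81 without Vil-Cre 1 to -1.61 without Vil-Cre 4 when 1 mouse was left out. The count over all genes was 1 in limma, 2 with a minimum of 50 and with array weights, 31 in DESeq2 and 269 in DESeq2 without Vil-Cre 3 and Vil-Cre 4, and 1 to 3 with 1 mouse left out (2 without Vil-Cre:NDI1 1 and 3 without Vil-Cre:NDI1 5). The count of pathway genes called was 0, 1 in DESeq2 and 5 in DESeq2 without Vil-Cre 3 and Vil-Cre 4. These 5 were Nr4a2, Rps6ka5, Cyr61, Gadd45b and Gadd45g, with log2 fold changes of -4.54, 0.66, -1.12, -0.60 and -0.67. Over all genes, DESeq2 called 0.179% of 17330 with every mouse, and 1.59% of 16953 without Vil-Cre 3 and Vil-Cre 4. The higher count of pathway genes thus came with a higher share called over all genes, and the cause was not tested. The members' median log2 fold change of -0.12 ranged from -0.28 (without Vil-Cre:NDI1 5) to -0.04 (without Vil-Cre:NDI1 3).

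Of the values near 0, Fosb reversed with array weights (-0.25), in DESeq2 and edgeR without Vil-Cre 3 and Vil-Cre 4 (-0.088 and -0.10), and without Vil-Cre 4, Vil-Cre 5 or Vil-Cre:NDI1 5 (range over mice left out -0.29 to 0.27). Fos reversed when Vil-Cre 1, 2 or 5 or Vil-Cre:NDI1 1, 3 or 4 was left out (-0.19 to 0.18), Zfp36 without Vil-Cre:NDI1 5 (-0.055 to 0.16), and Nab1 with equal totals (-0.0036) and without Vil-Cre 5 or Vil-Cre:NDI1 3 (-0.035 to 0.12). The correlation of Fos with Junb was 0.63 with equal totals (adjusted permutation p = 0.0520). Without the 2 mice farthest from the median of Fos, the correlation of Fos was 0.65 with Fosb, 0.50 with Jun, 0.11 with Junb, 0.63 with Egr1, 0.72 with Ier2, 0.51 with Nr4a1, 0.67 with Dusp1 and 0.45 with Zfp36, and none passed.

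Mice with the same replicate number did not deviate together (correlations from -0.12 to 0.14). The labels do not say whether the numbers pair mice, and these correlations cannot settle it. With a replicate block, 0 immediate early genes, 0 pathway genes and 1 gene overall passed, and the members' median log2 fold change was -0.12. With 5 mice per genotype the 95% interval of Egr1 reached from -2.09 to 0.40, and Egr2 at 0 to 14 reads was below the filter of the main limma test. DESeq2 gave Egr2 a log2 fold change of -1.99 (adjusted p = 0.683).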
